A study of Homo sapiens with 148 samples.

Results

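The genes described here encode 10 transcription factors of mesenchymal cells: TWIST1, TWIST2, SNAI1, SNAI2, ZEB1, ZEB2, PRRX1, FOXC1, FOXC2 and TCF21. They were chosen by name, with earlier results of these data known, and all 10 were found, each under 1 entry, among the 49085 gene names of a table of RNA levels. The table covers 6 stages of a stepwise pancreatic differentiation of H9, an established line of human embryonic stem cells. The stages are undifferentiated hESCs, definitive endoderm (DE, day 4), primitive gut tube-like cells (PGT, day 7), pancreatic progenitors (PP, day 14), organoids of β cells derived from the stem cells (SC-β, day 35) and a stage labelled PH, whose name and day the sources used here do not explain. All cells were wild type, came from this 1 line, and were grown as spheroids during differentiation. RNA-seq gave 2 samples per stage, 12 of the 148 samples of the series, and the authors averaged the 2 samples into 1 value per gene. Levels are in TPM, which divides reads by transcript length and scales each sample to a fixed total, so levels of different genes can be compared. Every value below is the authors' mean, without a spread, a depth or a test, and no statement here is one of statistical significance.

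Mesenchymal cells are loosely attached, migratory cells that build connective tissue. Factors of the TWIST, Snail and ZEB families bind short E-box sequences in DNA and are known to repress epithelial genes such as CDH1, which encodes E-cadherin, when epithelial cells turn mesenchymal. PRRX1, FOXC1, FOXC2 and TCF21 mark mesenchyme of the limbs, head, vessels and inner organs in the embryo, and several of the 10 genes also act in neural crest, a migratory population that gives rise to nerve, glial and connective tissue cells. The pancreas itself develops as an epithelium wrapped in mesenchyme.

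Known markers were compared with the stage labels. POU5F1, a pluripotency factor, stood at 1449 TPM in hESCs, SOX17, an endoderm factor, at 96.1 TPM in DE, and the hormone genes INS and GCG at 298 and 2793 TPM in SC-β. PDX1, which defines pancreatic progenitors, had only 3.17 TPM in PP; its level in SC-β was 1.57 TPM. PH held 0.0173 TPM of PDX1 and 6.86 TPM of INS, but 545 TPM of TUBB3, a neuronal tubulin, and 110 TPM of HES5, a neural progenitor factor. A few structural RNAs took between 31.8% of all TPM in DE and 50.9% in PH, so the comparisons were repeated on stages brought to a common median over the 13938 genes that reached 1 TPM in all of them. This rescaling moved the log2 ratio between 2 stages by -0.48 for DE against hESCs, 0.15 for PGT against DE, 0.09 for PP against PGT, -0.27 for SC-β against PP, -0.52 for SC-β against hESCs, 0.22 for PH against PP and 0.50 for PH against SC-β. It is named beside each member whose call it changed.

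As a set, the 10 genes were nearly silent in the early stages and abundant in SC-β. Their summed level was 8.32 TPM in hESCs, 14.1 TPM in DE, 9.89 TPM in PGT, 111 TPM in PP, 543 TPM in SC-β and 239 TPM in PH. Of the members, 2 reached 1 TPM in hESCs, 2 in DE and 3 in PGT, whereas 7 did in PP, 9 in SC-β and 8 in PH. Over all gene names, between 34.2% in hESCs and 50.1% in SC-β reached 1 TPM. No member reached 10 TPM before PP, whereas 2 did so in PP, 8 in SC-β and 4 in PH. Over all gene names, between 16.6% in hESCs and 21.9% in SC-β reached 10 TPM, and the share in PP was 18.7%, close to that of the members in PP. The leading gene changed from stage to stage: SNAI1 in hESCs and PGT, FOXC1 in DE, ZEB2 in PP and PH, and PRRX1 in SC-β. These are bulk RNA levels, in which more cells that express a gene and more RNA per cell cannot be told apart.

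**Figure D1:**
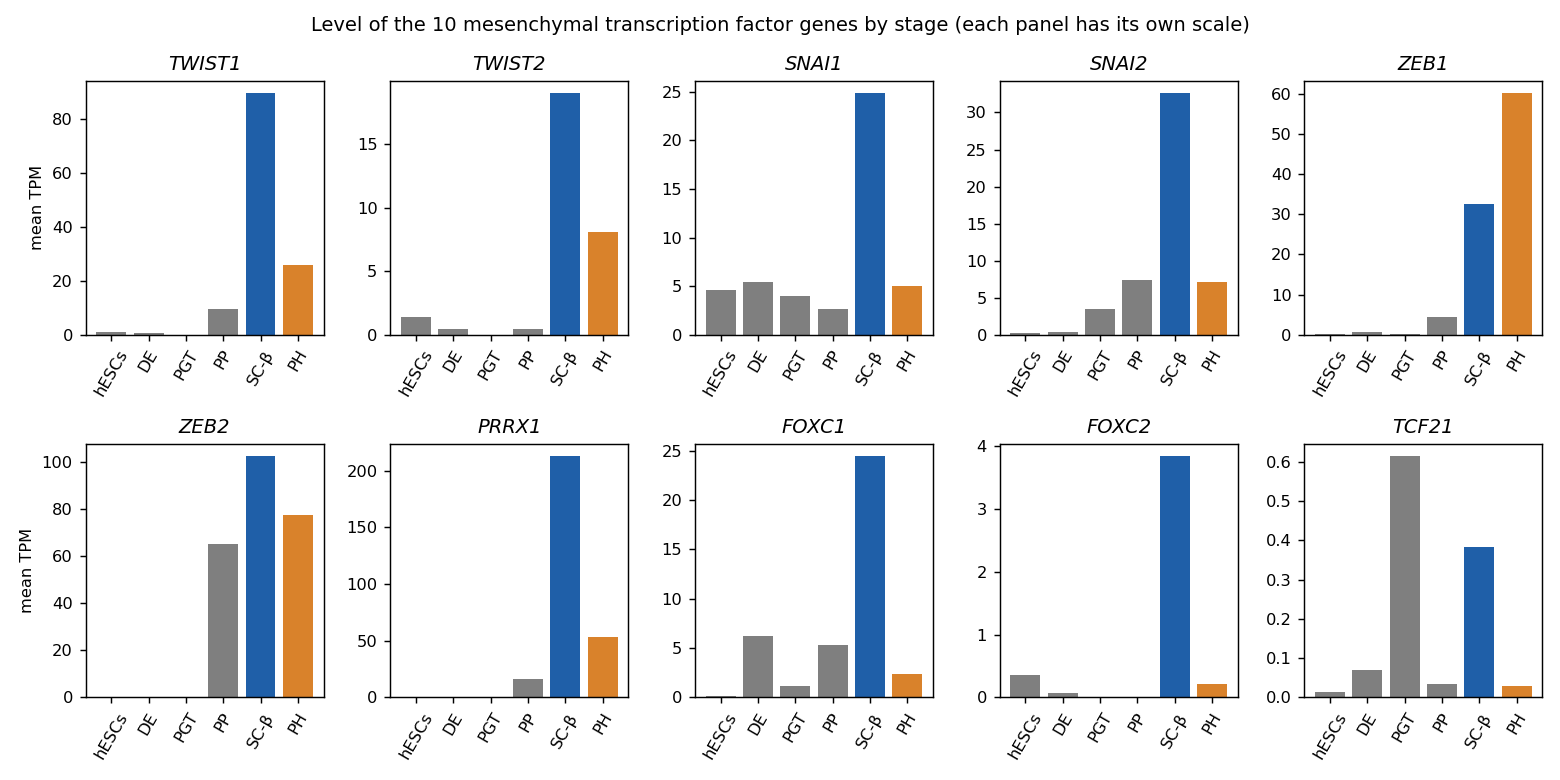
Mean TPM (y axis, from 0, a separate scale in each panel) of the 10 genes in 6 stages (x axis), with SC-β in blue, PH in orange and the other stages in grey; each bar is the authors' mean of 2 samples and has no error. SC-β has the tallest bar for 8 genes, while ZEB1 is tallest in PH at 60.1 TPM and TCF21 in PGT at 0.615 TPM.

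TWIST1 and TWIST2 encode closely related basic helix-loop-helix factors of head mesenchyme, dermis and bone precursors. TWIST1 lies at chr7:19020991-19117636 on the minus strand and TWIST2 at chr2:238848032-238910534 on the plus strand (GENCODE version 44 on GRCh38, the build of the files, as for all positions below). TWIST1 was listed at 0.965 TPM in hESCs, 0.602 TPM in DE, 0.0643 TPM in PGT, 9.40 TPM in PP, 89.7 TPM in SC-β and 25.9 TPM in PH. It thus came on between PGT and PP, and in SC-β its level was above that of 96.0% of all genes at 1 TPM or more. TWIST2 was listed at 1.39 TPM in hESCs, 0.487 TPM in DE, 0 in PGT, 0.433 TPM in PP, 19.0 TPM in SC-β and 8.09 TPM in PH. It was still below 1 TPM in PP, where TWIST1 made up 95.6% of the TPM of the pair. The share of TWIST2 was 17.5% in SC-β and 23.8% in PH.

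SNAI1 and SNAI2 encode the zinc finger repressors Snail and Slug. SNAI1 lies at chr20:49982980-49988886 on the plus strand and SNAI2 at chr8:48917598-48921740 on the minus strand. SNAI1 was the only member at 1 TPM or more in all 6 stages, with 4.58 TPM in hESCs, 5.39 TPM in DE, 4.02 TPM in PGT, 2.70 TPM in PP, 24.9 TPM in SC-β and 5.07 TPM in PH. Apart from SC-β its levels stayed within a narrow band, and its lowest level was in PP, where most other members had come on. SNAI2 was listed at 0.270 TPM in hESCs, 0.355 TPM in DE, 3.43 TPM in PGT, 7.36 TPM in PP, 32.6 TPM in SC-β and 7.17 TPM in PH. It therefore appeared a stage earlier than TWIST1, ZEB1, ZEB2 and PRRX1, each of which was under 1 TPM in PGT. The balance of the pair turned over: SNAI1 held 94.4% of its TPM in hESCs and 93.8% in DE, 53.9% in PGT, and 26.8% in PP, then 43.3% in SC-β and 41.4% in PH. Such a share within a stage does not depend on how the stages are scaled.

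ZEB1 and ZEB2 encode large zinc finger and homeodomain repressors. ZEB2 is also a factor of neural crest and of glial and neuronal development. ZEB1 lies at chr10:31318495-31529814 on the plus strand and ZEB2 at chr2:144364364-144521057 on the minus strand. ZEB2 had the steepest onset of the 10 genes, with 0.304 TPM in hESCs, 0.158 TPM in DE, 0.239 TPM in PGT, 65.3 TPM in PP, 103 TPM in SC-β and 77.4 TPM in PH. In PP it alone made up 58.7% of the summed TPM of the set and stood above 93.2% of all genes at 1 TPM or more. The log2 ratio of (TPM + 1) for the later step from PP to SC-β was only 0.65.

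ZEB1 took another course. It was listed at 0.264 TPM in hESCs, 0.719 TPM in DE and 0.0963 TPM in PGT. Its later levels were 4.36 TPM in PP, 32.5 TPM in SC-β and 60.1 TPM in PH. In TPM as listed it was the only member above 1 TPM with its highest level in PH. After median-ratio rescaling ZEB2 was also slightly higher in PH than in SC-β, at a log2 ratio of 0.09. ZEB2 held 93.7% of the TPM of the pair in PP, 76.0% in SC-β and 56.3% in PH. The summed level of the pair was 135 TPM in SC-β and 137 TPM in PH, in different proportions. This similar total holds only for TPM as listed, since rescaling moved the log2 ratio of PH against SC-β by 0.50.

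An antisense gene is annotated at the start of each ZEB gene. ZEB2-AS1, which overlaps ZEB2 on the other strand, was listed at 0 in hESCs, DE and PGT and at 4.65 TPM in PP, 5.27 TPM in SC-β and 4.16 TPM in PH. ZEB1-AS1 had 0.994 TPM in hESCs, 2.60 TPM in DE, 1.40 TPM in PGT, 1.98 TPM in PP, 8.13 TPM in SC-β and 10.3 TPM in PH. It shared with ZEB1 the highest level in PH, but in PP it was below its level in DE. The labels name a strand-specific library kit, but whether strand was used in making the TPM is not given in the sources used here, so reads of these genes and of their partners may not be separate. TEX41, whose start lies 145 kb from that of ZEB2, ran the other way, with 2.97 to 4.85 TPM in hESCs, DE and PGT and 0.330 to 0.824 TPM in PP, SC-β and PH. For GTDC1, on the other side of ZEB2, the range over the 6 stages was 8.06 to 17.6 TPM.

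The ZEB genes are the known targets of the miR-200 family, microRNAs of epithelial cells that are themselves repressed by ZEB proteins. A microRNA recognises a target mainly through its seed, bases 2 to 8, and the 5 members fall into 2 groups by seed. Their mature sequences (RefSeq, GRCh38.p14, 5′ to 3′) are shown because the seed is what was searched for in the 10 genes, and capitals mark it. The first 3 share a seed, as do the last 2.
hsa-miR-200b-3p: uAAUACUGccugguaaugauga
hsa-miR-200c-3p: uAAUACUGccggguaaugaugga
hsa-miR-429: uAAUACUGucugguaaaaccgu
hsa-miR-200a-3p: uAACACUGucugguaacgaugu
hsa-miR-141-3p: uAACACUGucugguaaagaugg
Letters that pair with these seeds, CAGTATT and CAGTGTT, were counted on the sense strand of the 3′ UTR of the reference transcript (MANE Select, GENCODE version 44) of each member. ZEB1 held 6 and 3 of them in 2540 bases, and ZEB2 held 5 and 4 in 5370 bases. SNAI2 and FOXC1 held 1 each, and the other 6 genes had none. Among 2049 UTRs within 1.2-fold of the length of that of ZEB1, 47.8% held a match, and 1, its own, held 9. Among 982 UTRs within 1.2-fold of the length of that of ZEB2, 73.8% held a match and 2, its own included, held 9 or more. The match nearest to the stop codon for each seed group, with the letters in capitals, shows the kind of site in each gene; the spans are chr10:31527622-31527650 and chr10:31528035-31528063 on the plus strand for ZEB1, then chr2:144389042-144389070 and chr2:144389226-144389254 on the minus strand for ZEB2.
ZEB1, CAGTATT: ttttatcttatCAGTATTatcactcttat
ZEB1, CAGTGTT: atcatcagaatCAGTGTTtgtgattgtgt
ZEB2, CAGTATT: ctaccatacatCAGTATTtttattattat
ZEB2, CAGTGTT: aaaattttgtaCAGTGTTaaggcctaaaa
A match of letters is no evidence that a site is used.

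**Figure D2:**
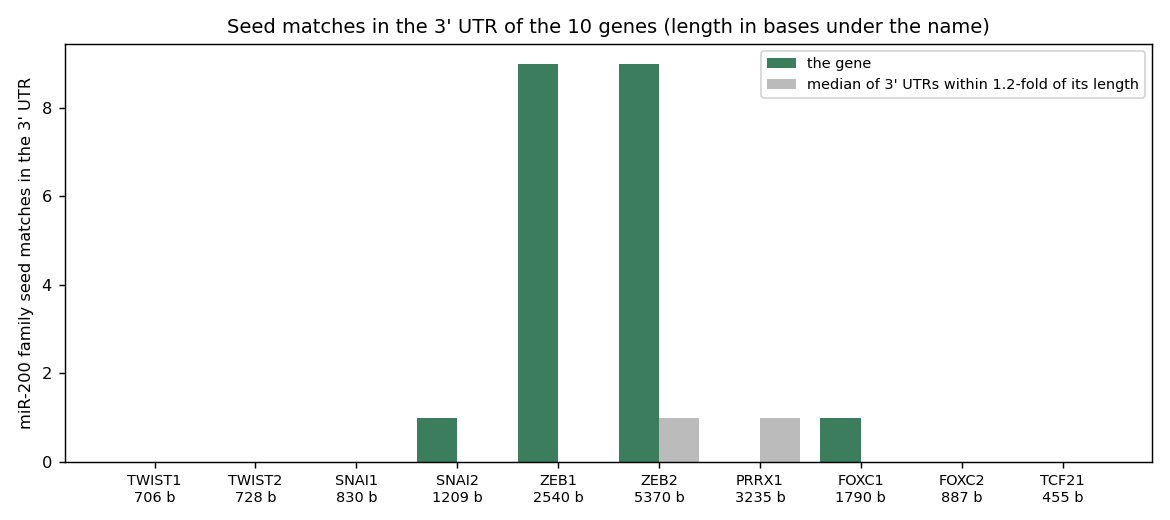
Number of miR-200 family seed matches (y axis) in the 3′ UTR of each of the 10 genes (green; x axis, with the UTR length in bases) and the median number in UTRs within 1.2-fold of that length (grey; a missing bar is 0). ZEB1 and ZEB2 hold 9 matches each, and no other member holds more than 1.

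The table lists the microRNA hairpins as genes of their own. Such values come from long-RNA libraries and are not levels of the mature microRNAs. The 5 hairpin entries together had 2.06 TPM in hESCs, 4.55 TPM in DE, 6.26 TPM in PGT, 5.46 TPM in PP, 1.59 TPM in SC-β and 0.575 TPM in PH. Their sum was thus lowest in the stage with the most ZEB1, but it was no lower in PP than in hESCs, although ZEB2 stood at 65.3 TPM in PP. MIR429, the entry with the highest value, had 0.984 TPM in hESCs, 1.08 TPM in DE, 2.94 TPM in PGT, 2.98 TPM in PP, 0.719 TPM in SC-β and 0 in PH. All of these entries are low, and no relation between them and the ZEB genes was tested.

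PRRX1 encodes a homeodomain factor of limb, head and organ mesenchyme and lies at chr1:170662728-170739421 on the plus strand. Its levels were 0.0505 TPM in hESCs, 0.0185 TPM in DE, 0.268 TPM in PGT, 16.4 TPM in PP, 213 TPM in SC-β and 52.9 TPM in PH. In SC-β it was the most abundant member, with 39.2% of the summed TPM of the set, and stood above 98.8% of all genes at 1 TPM or more. PRRX1, ZEB2 and TWIST1 together made up 74.6% of the set in SC-β. GORAB, the only other gene at 1 TPM or more among the genes that start within 250 kb and are listed in the table, ranged from 8.34 to 15.0 TPM.

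FOXC1 and FOXC2 encode forkhead factors of head mesenchyme, somites and vessels. FOXC1 lies at chr6:1609915-1613897 and FOXC2 at chr16:86566829-86569728, both on the plus strand. FOXC1 had 0.131 TPM in hESCs, 6.27 TPM in DE, 1.16 TPM in PGT, 5.34 TPM in PP, 24.5 TPM in SC-β and 2.39 TPM in PH. On the scale of (TPM + 1) it was the only member 2-fold higher in DE than in hESCs, and its level in PGT was again lower. With a pseudocount of 0.1 TPM 2 members were higher in DE, the other being ZEB1, which stayed under 1 TPM in both stages. FOXC2 had 0.364 TPM in hESCs, 0.0644 TPM in DE, 0 in PGT, 0 in PP, 3.85 TPM in SC-β and 0.210 TPM in PH, so it passed 1 TPM in SC-β only. FOXC1 held at least 86.4% of the TPM of the pair in every stage but hESCs.

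Genes beside FOXC2 shared its late onset. FENDRR, a long noncoding RNA, was listed at 0 in the 4 stages up to PP, at 5.41 TPM in SC-β and at 0.226 TPM in PH. FOXF1, a factor of gut mesenchyme next to FENDRR, was under 0.03 TPM in the 4 stages up to PP, at 2.11 TPM in SC-β and at 0.213 TPM in PH. FOXL1, whose start lies 9.54 kb from that of FOXC2, had 0.796 TPM in hESCs, no more than 0.105 TPM in DE, PGT and PP, 1.78 TPM in SC-β and 0.311 TPM in PH. MTHFSD, a broadly expressed neighbour, ranged from 9.30 to 12.7 TPM over the 6 stages. Near FOXC1, FOXF2 had its highest level in SC-β at 4.00 TPM and its next highest in PGT at 1.94 TPM.

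TCF21, a basic helix-loop-helix factor of mesenchyme in heart, kidney, lung and spleen, was the exception. It lies at chr6:133889113-133895553 on the plus strand and never reached 1 TPM, with 0.0137 TPM in hESCs, 0.0699 TPM in DE, 0.615 TPM in PGT, 0.0344 TPM in PP, 0.382 TPM in SC-β and 0.0280 TPM in PH. Without read counts these levels cannot be told from 0. TARID, an antisense gene that overlaps TCF21, had 3.79 TPM in SC-β and at most 0.452 TPM in the other stages.

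**Figure D3:**
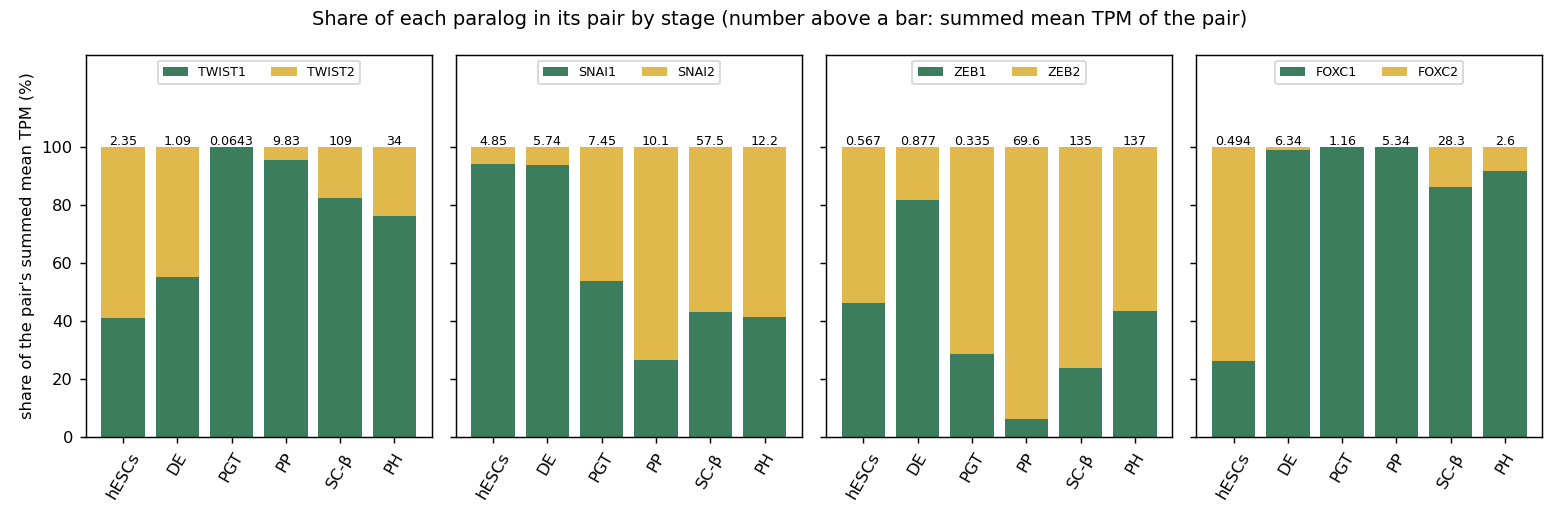
Share of each paralog in the summed mean TPM of its pair (y axis, percent) in 6 stages (x axis) for the TWIST, Snail, ZEB and FOXC pairs; the number above a bar is the summed mean TPM of the pair. SNAI1 goes from 94.4% in hESCs to 26.8% in PP, and ZEB2 from 93.7% in PP to 56.3% in PH; shares in pairs with a low sum rest on very low values.

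To compare stages, log2 ratios were taken of (TPM + 1), which understates the difference of genes with low levels, and a gene was counted from 2-fold upwards. Early differentiation left the set mostly off. In DE against hESCs, FOXC1 was higher by a log2 ratio of 2.69, and no member was lower; of all 49085 gene names 12.9% were higher and 2.55% lower, and of the names at 1 TPM or more in either stage 28.2% were higher. In PGT against DE, SNAI2 was higher by 1.71 and FOXC1 had a ratio of -1.75, beside 2.3% of all gene names higher and 4.92% lower. Neither of these 2 calls was made with a pseudocount of 5 TPM or from 4-fold.

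The step from PGT to PP brought 5 of the 10 genes up and none down. The log2 ratios were 5.74 for ZEB2, 3.78 for PRRX1, 3.29 for TWIST1, 2.29 for ZEB1 and 1.56 for FOXC1. Of all gene names 2.74% were higher in PP, or 6.3% of the 21378 names at 1 TPM or more in PGT or PP, and 3.25% of all names were lower. The median log2 ratio was 1.24 over the 10 genes and 0.00 over all gene names. SNAI2, at 0.92, fell just short of 2-fold, and SNAI1 had a ratio of -0.44. With a pseudocount of 5 TPM only 3 members passed, because the calls of ZEB1 and FOXC1 rest on levels near 5 TPM.

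Between PP and SC-β 8 of the 10 genes were higher, with TWIST2 at a log2 ratio of 3.80, PRRX1 at 3.62, TWIST1 at 3.12, SNAI1 at 2.81, ZEB1 at 2.64, FOXC2 at 2.28 and both SNAI2 and FOXC1 at 2.01. ZEB2, already high in PP, and TCF21 did not reach 2-fold. Of all gene names 10.6% were higher and 0.939% lower, and among the names at 1 TPM or more in either stage 20.7% were higher. The median log2 ratio was 2.46 over the 10 genes and 0.16 over all names. Over the whole protocol, from hESCs to SC-β, 9 of 10 were higher and none was lower, beside 22.2% and 3.7% of all gene names. Among the names at 1 TPM or more in either of these stages 42.4% were higher. The ratios ran from 1.83 for FOXC2 to 7.67 for PRRX1, and that of TCF21 was 0.45.

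PH held 8 members at 1 TPM or more, beside 7 in PP and 9 in SC-β, so it differed from them mainly in levels. Against PP, 4 of the 10 genes were higher in PH: ZEB1 by a log2 ratio of 3.51, TWIST2 by 2.67, PRRX1 by 1.63 and TWIST1 by 1.37. Of all gene names 5.14% were higher and 5.73% lower, and of those at 1 TPM or more in either stage 11.5% were higher. From 4-fold only ZEB1 and TWIST2 passed. Against SC-β, 7 of the 10 genes were lower in PH and none was higher, beside 14.7% of all gene names lower and 2.41% higher. Among the names at 1 TPM or more in either stage 28.1% were lower. The ratios were -2.91 for FOXC1, between -2.09 and -1.99 for SNAI1, SNAI2, FOXC2 and PRRX1, -1.75 for TWIST1 and -1.14 for TWIST2. ZEB2 and ZEB1 had -0.40 and 0.87. After median-ratio rescaling ZEB2 turned to 0.09, ZEB1 passed 2-fold at 1.35, and TWIST2, at -0.68, no longer did.

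**Figure D4:**
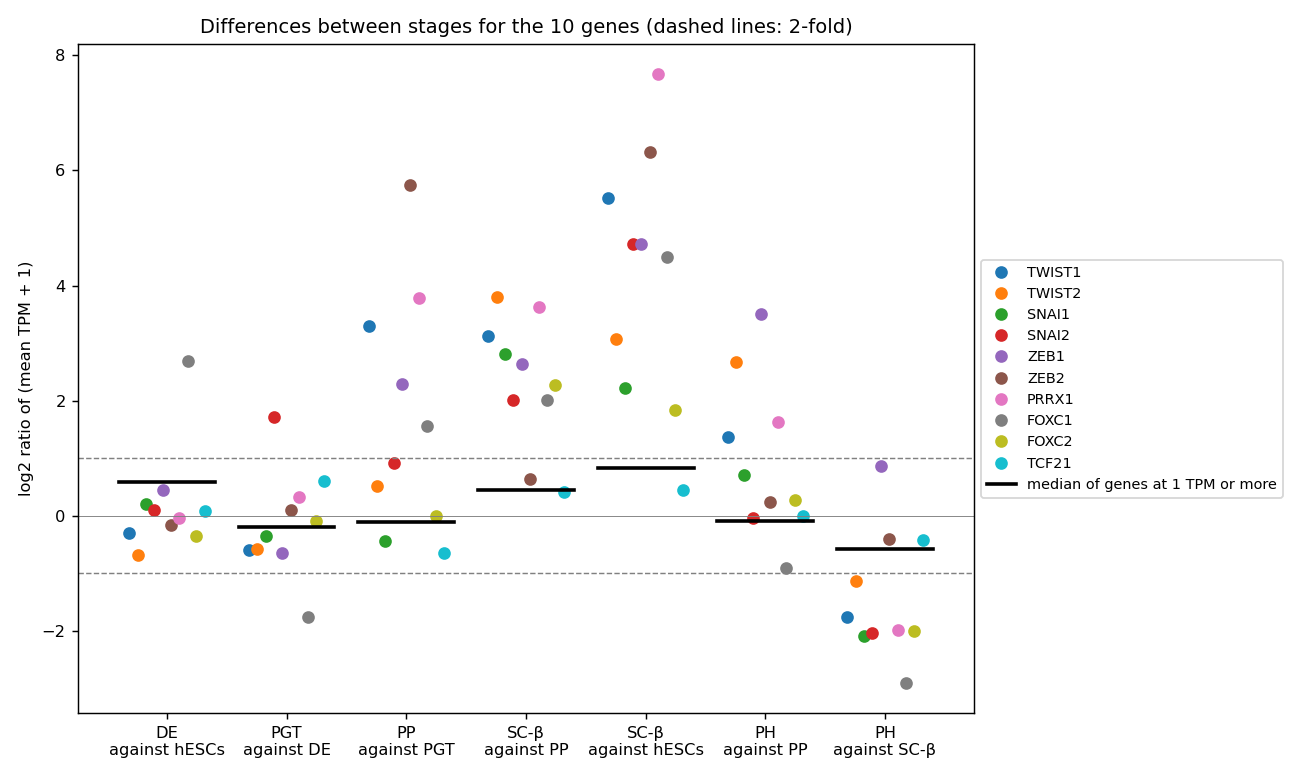
Log2 ratio of (mean TPM + 1) between 2 stages (y axis) for the 10 genes (coloured points) in 7 comparisons (x axis), with the median of the gene names that reached 1 TPM in either stage (black bar) and lines at 2-fold (dashed). In PP against PGT, ZEB2 is at 5.74, and in PH against SC-β, ZEB1 is at 0.87 while 7 genes lie under the lower line.

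Genes that mesenchymal cells use as structure and surface proteins, a list of 30, followed the 10 factors in SC-β more clearly than in PP. In PP against PGT 14 were higher and 6 lower, in SC-β against PP 21 higher and 1 lower, and in PH against PP 17 higher and 5 lower. The median log2 ratios were 0.78, 2.43 and 1.53, beside 0.00, 0.16 and 0.00 over all gene names. Of all gene names 2.74%, 10.6% and 5.14% were higher in these comparisons. COL3A1, a fibrillar collagen, had 0.921 TPM in PGT, 14.9 TPM in PP, 771 TPM in SC-β and 349 TPM in PH. POSTN, a matrix protein of fibroblasts, had 0.378 TPM in PGT, 11.0 TPM in PP, 283 TPM in SC-β and 59.4 TPM in PH. VIM, the intermediate filament of mesenchymal cells, had 226 TPM in hESCs and 48.0 TPM in DE. Its later levels were 52.3 TPM in PGT, 353 TPM in PP, 1767 TPM in SC-β and 1437 TPM in PH. FN1, also made by endoderm, went the other way, with 7276 TPM in PGT, 1232 TPM in PP, 609 TPM in SC-β and 86.2 TPM in PH. The others lower in PP than in PGT were PDGFRA, SPARC, COL6A2, COL5A1 and CDH2. Of these, SPARC had 210 TPM in PGT, 54.0 TPM in PP, 318 TPM in SC-β and 105 TPM in PH. In PH against SC-β 16 of the 30 were lower and 1, MGP, was higher, and after rescaling 9 were lower and 3 higher. In TPM as listed 14.7% of all gene names were lower, or 28.1% of those at 1 TPM or more in either stage.

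Epithelial genes, another list of 30, did not mirror the factors stage by stage. In PP against PGT, where ZEB2, TWIST1 and PRRX1 came on, 5 were lower and 1 higher, with a median log2 ratio of -0.57. After rescaling 3 were lower. Of all gene names 3.25% were lower, or 7.46% of those at 1 TPM or more in either stage. CDH1 had 145 TPM in PGT against 92.6 TPM in PP, which is -0.65 as a log2 ratio. In SC-β against PP 6 were lower and 1 higher, and after rescaling 9 were lower. The median log2 ratio was -0.54, beside 0.16 over all gene names, of which 0.939% were lower. CDH1 stood at 71.3 TPM in SC-β. The median epithelial level was not lowest in SC-β, where 8 of the 10 factors were highest in TPM as listed. It was lowest in PH, the stage with the most ZEB1. In PH 26 of 30 were lower than in PP, with a median log2 ratio of -2.16, and 24 were lower than in SC-β, or 15 after rescaling. Of all gene names 5.73% were lower than in PP and 14.7% lower than in SC-β. Among the names at 1 TPM or more in either stage these shares were 12.8% and 28.1%. CDH1 had 17.7 TPM in PH, and KRT8, a keratin of simple epithelia, had 21.4 TPM in PH against 288 TPM in PP and against 210 TPM in SC-β. No relation between the factors and epithelial genes was tested over 6 stages.

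Neural crest markers were higher in PP than in PGT, as 5 of the factors were. Of 12 neural crest and Schwann cell markers, 11 were higher in PP than in PGT and none was lower, with a median log2 ratio of 3.17. Of all gene names 2.74% were higher and 3.25% lower. The summed level of the 12 markers was 88.6 TPM in PGT, 335 TPM in PP, 185 TPM in SC-β and 234 TPM in PH. NGFR, a receptor of neural crest cells, went from 0.226 to 49.7 TPM and S100B, a glial protein, from 0 to 28.7 TPM between PGT and PP. SOX10, the defining factor of migrating neural crest and glia, had 0 in PGT, 8.69 TPM in PP, 0.649 TPM in SC-β and 0.318 TPM in PH. In SC-β against PP 8 of the 12 were lower and 1, PAX3, was higher, or none after rescaling, beside 0.939% and 10.6% of all gene names. In the same step 8 of the 10 factors were higher. The part of such cells in the levels of ZEB2, TWIST1 and SNAI2 in PP was not tested.

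In PH 11 of 13 neural markers were higher than in PP, beside 5.14% of all gene names. The summed level of the markers was 1596 TPM in PH against 177 TPM in PP and against 297 TPM in SC-β. STMN2, a neuronal protein, had 301 TPM in PH against 4.48 TPM in PP. Against SC-β 10 were higher and 1, NEUROD1, was lower, beside 2.41% and 14.7% of all gene names. The part of neural cells in the high ZEB1 level of PH was not tested.

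Of the markers of other lineages, a few were higher in SC-β than in PP. This held for 2 of 10 endothelial, 3 of 8 mesothelial, 3 of 10 skeletal and cardiac muscle and 1 of 9 blood markers. None of these lists had a marker that was lower. Of all gene names 10.6% were higher in this step, or 20.7% of those at 1 TPM or more in either stage. The endothelial and blood counts lay close to these shares. The summed level of 10 endothelial markers was highest in hESCs at 55.0 TPM, mostly from TEK at 32.3 and KDR at 20.2 TPM. It was 5.60 TPM in PP, 12.5 TPM in PH and 32.6 TPM in SC-β. The defining genes PECAM1 and CDH5 were at most 0.430 and 0.369 TPM in any stage. The endothelial and blood cell factors FLI1 and ERG were the 2 that were higher in SC-β than in PP, with 0.767 and 0.768 TPM in PP and 19.0 and 5.18 TPM in SC-β. For 9 blood markers the sum was at most 7.93 TPM in any stage, with PTPRC at most 0.282 TPM. Of 10 skeletal and cardiac muscle markers MYOD1 was at most 0.114 TPM, and their sum was 5.63 TPM in PP against 15.8 TPM in SC-β, where TNNT2, a troponin, had 7.09 TPM. The 8 mesothelial markers summed to 65.9 TPM in hESCs, where PDPN had 59.7 TPM, to 32.8 TPM in PP and to 79.4 TPM in SC-β. MSLN was at most 0.272 TPM in any stage, and WNT2B was at 24.4, KRT7 at 19.7 and CALB2 at 12.5 TPM in SC-β. The part of such cells in the levels of the 10 factors was not tested.

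**Figure D5:**
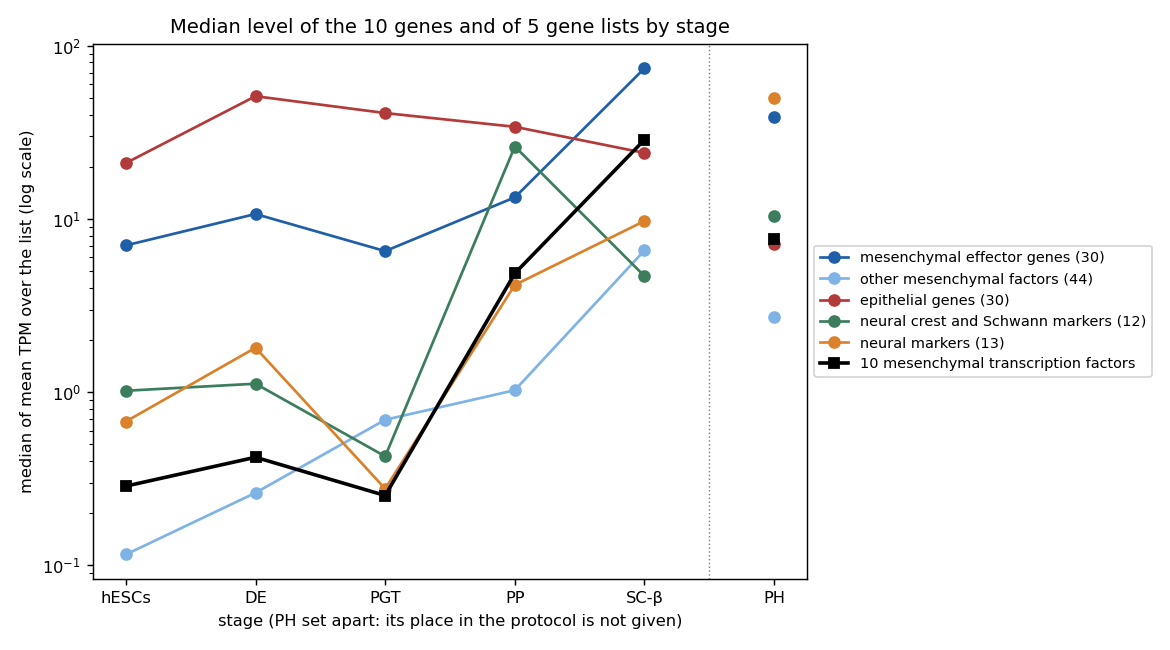
Median of mean TPM (y axis, log scale) over the 10 factors (black squares) and over 5 lists of genes (coloured points, number of genes in brackets) by stage (x axis); PH is set apart because its place in the protocol is not given. The median of the 10 factors goes from 0.253 TPM in PGT to 4.85 TPM in PP, then to 28.7 TPM in SC-β, while that of the epithelial list is lowest in PH at 7.13 TPM.

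Other factors of mesenchyme, 44 genes related to the 10 by family or tissue, were counted in the same way. In PP against PGT 12 were higher and 6 lower, beside 2.74% and 3.25% of all gene names. In SC-β against PP 25 were higher and 1, SIX2, was lower, beside 10.6% and 0.939% of all names. The median log2 ratios were 0.11 and 1.40, beside 0.00 and 0.16 over all gene names. EBF1 had 0.0254 TPM in PGT, 0.757 TPM in PP, 61.8 TPM in SC-β and less in PH. NR2F1, a nuclear receptor of neural crest and mesenchyme, had 0.783 TPM in PGT, 13.4 TPM in PP, 57.9 TPM in SC-β and 61.3 TPM in PH. HAND1, a factor of early mesoderm, stood at 50.4 TPM in PGT and at 0.217 TPM in PP. TBX20, a heart factor, had 14.7 TPM in DE, 15.6 TPM in PGT and 0.0740 TPM in PP. Within the families of the 10, PRRX2 had 9.05 TPM in PGT, 3.33 TPM in PP, 22.6 TPM in SC-β and 12.5 TPM in PH. SNAI3, the third Snail gene, had its highest level in hESCs at 5.51 TPM and its lowest in SC-β at 2.46 TPM.

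The genes whose pattern was most like that of a member were found by Pearson's r of log2(TPM + 1) over the 6 stage means, among 12081 named genes that reached 10 TPM in at least 1 stage. For TWIST1 they were CNRIP1, SCUBE1 and POSTN, with r of 0.994 to 0.997, and for PRRX1 they were SCUBE1, RPL35AP31 and CNRIP1, with r of 0.995 to 0.998. For ZEB2 they were SPINK1, HOTAIRM1 and HOXA2, all but SPINK1 being of the HOXA cluster, with r of 0.994 to 0.996. For ZEB1 they were SPARCL1, AMPH and GSTA4, with r of 0.994 to 0.996, and for SNAI2 they were NR2F2-AS1, RPS6KB1 and PCDH19, with r of 0.995 to 0.999. TWIST2 was closest to CD248, a surface protein of pericytes and fibroblasts, GLT8D2 and COL6A3, with r of 0.982 to 0.990. SNAI1 was closest to CYP1B1-AS1, ARHGDIA and PEG10, with r of 0.972 to 0.983, and FOXC1 to ALKBH2, MMP24-AS1 and IFT57, with r of 0.989 to 0.993. With so few points, between 123 and 350 genes had an r of at least 0.9 with a given member. Leaving out PH or using untransformed TPM kept at most 1 of the 3 genes for any member, so these names describe the 6 means and are not stable neighbours.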

How the data were processed

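Per the labels, total RNA was isolated with Trizol, ribosomal RNA was removed with RiboMinus, and a TruSeq Stranded mRNA kit is also named. HISAT2 (version 2.2.0) aligned the reads on hg38 and StringTie (version 2.1.6) gave TPM, and the authors deposited mean TPM per gene and stage; the annotation is not given in the sources used here. The table has 50451 entries under 49085 names, and entries of the 231 repeated names were summed. Replicate values, counts and depth cannot be recovered from mean TPM, so no interval, limit of detection or test is given.

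Log2 ratios used a pseudocount of 1 TPM and a 2-fold threshold in 7 comparisons of stages. Positions and 3′ UTRs came from GENCODE version 44, microRNA sequences from RefSeq. Neighbours were genes that start within 250 kb of a member and reach 1 TPM in some stage, without names that have several entries. The members and the 15 gene lists (231 genes, 230 found) were chosen with earlier results of these data known. Named were all members, their neighbours, the 3 genes most like each member at 10 TPM or more in some stage, and the 2 genes of a list with the largest ratio each way; CDH1, VIM, POSTN, SOX10, PDX1, POU5F1, SOX17, INS, GCG, TUBB3, SNAI3, PRRX2 and the other markers named were chosen after their values were seen. Not every gene that the rule covers is printed. Alternatives were pseudocounts of 0.1 and 5, median-ratio rescaling, totals without mitochondrial and the 100 most abundant genes, the highest entry of a repeated name, a 4-fold threshold and a 1 TPM filter. The calculations were tested on simulated data. Python 3.11.15, numpy 2.4.6, pandas 2.3.3 and matplotlib 3.10.9 were used.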

Additional observations from a re-analysis of the deposited data

How the results depend on the processing

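Each value is a mean of 2 samples with no spread and no depth, so a difference between stages may lie within the error of the samples, most of all under about 1 TPM. Leaving out a replicate was not possible, since the table holds 1 mean per stage. No paired analysis was possible because the columns carry no replicate. Of 350 log2 ratios of members under an alternative, 316 kept their side of 2-fold, 24 newly passed it, 10 no longer did, and no called ratio changed sign. Of 98 counts of members, 80 stayed within 1.5 times the reported count. With a pseudocount of 0.1, 2 members were higher and 2 lower in DE against hESCs, 3 higher and 4 lower in PGT against DE, 1 lower in PP against PGT and 1 lower in PH against PP. With a pseudocount of 5, 0 members were higher and 0 lower in PGT against DE and 3 were higher in PP against PGT. After median-ratio rescaling 1 member was higher in PH against SC-β. Without mitochondrial and the 100 most abundant genes 1 member was lower in DE against hESCs, 2 were higher in PGT against DE, 1 was lower in PP against PGT and 1 was higher in PH against SC-β. From 4-fold 0 members were higher and 0 lower in PGT against DE, 2 were higher in PH against PP and 4 were lower in PH against SC-β. The highest entry of a repeated name and the 1 TPM filter could not move a count of members. Each member has 1 entry, and a 2-fold ratio of (TPM + 1) needs at least 1 TPM in a compared stage. The 98 counts include both settings and the 350 ratios include the first, so both totals overstate how stable the calls are. For the lists, a pseudocount of 0.1 gave 2 epithelial genes higher in PP against PGT and 2 other mesenchymal factors lower in SC-β against PP. Median-ratio rescaling gave 3 epithelial genes lower in PP against PGT and 15 in PH against SC-β; 2 mesenchymal structure and surface genes lower in SC-β against PP, and 3 higher and 9 lower in PH against SC-β; 2 other mesenchymal factors lower and 0 neural crest markers higher in SC-β against PP. The cause of these moves was not tested, apart from the changed scale itself.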

Other observations

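Partners of the TWIST proteins and TCF21 were present in every stage. These basic helix-loop-helix factors bind DNA with E proteins, and ID proteins hold E proteins back. Of the E protein genes, TCF4 had 26.5 TPM in hESCs, 29.1 TPM in DE, 58.2 TPM in PGT, 59.2 TPM in PP, 159 TPM in SC-β and 121 TPM in PH. TCF12 had 43.8 TPM in hESCs and was highest in PH at 234 TPM, the stage with the most ZEB1. TCF3 ranged only from 37.2 to 66.0 TPM. The inhibitor genes peaked in PGT, where the 2 TWIST genes were lowest: ID1 had 764 TPM, ID2 302 TPM, ID3 386 TPM and ID4 123 TPM there, beside 147, 102, 145 and 71.6 TPM in PP. In SC-β, where TWIST1 was highest, ID1 stood at 314 TPM. In hESCs, where TWIST1 had 0.965 TPM, ID1 had 79.4 TPM. No relation between the ID genes and the TWIST genes was tested. Of the 7 E protein and ID genes, 3 were lower and none was higher in PP against PGT. Of the names at 1 TPM or more in either stage 7.46% were lower. In SC-β against PP 2 of the 7 were higher and none lower, or 1 higher after median-ratio rescaling. Of the names at 1 TPM or more in either of these stages 20.7% were higher.

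Signals known to induce these factors had no common course. Of 20 genes of TGF-β and PDGF signalling, 3 were higher and 4 lower in PP against PGT. In SC-β against PP 5 were higher and none lower, and in PH against SC-β none was higher and 6 were lower. After rescaling 3 were higher and 1 lower in SC-β against PP, and 3 were lower in PH against SC-β. Of the names at 1 TPM or more in either stage 6.3% were higher and 7.46% lower in PP against PGT. In SC-β against PP 20.7% of such names were higher, and in PH against SC-β 28.1% were lower. The counts of 5 and 6 lay close to these last shares. No relation between these signals and the 10 factors was tested. TGFB2, a ligand, had 0.0917 TPM in hESCs, 0.968 TPM in DE and 45.1 TPM in PGT. Its later levels were 5.57 TPM in PP, 83.4 TPM in SC-β and 38.5 TPM in PH. The PDGFRA receptor gene, on the list of mesenchymal structure and surface genes, had a similar shape, with 62.0 TPM in PGT, 11.9 TPM in PP, 205 TPM in SC-β and 58.1 TPM in PH. Corepressors of the Snail and ZEB proteins and enzymes that set their stability formed a list of 15 genes. Of these, none was higher or lower in PP against PGT, and none was higher and 1, HDAC2, was lower in SC-β against PP, or 2 lower after rescaling. Against hESCs, 4 were higher in DE and 4 higher and 1 lower in SC-β, and after rescaling 1 was higher in DE and none in SC-β. Of the names at 1 TPM or more in either stage 28.2% were higher in DE, and 42.4% higher and 7.08% lower in SC-β. None of these counts in TPM as listed exceeded those shares. KDM1A, the histone demethylase that Snail recruits, ranged from 139 to 205 TPM, and AJUBA, a Snail cofactor, had 13.4 TPM in hESCs and at most 45.3 TPM, in PGT.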
